A study of Mus musculus with 6 samples.

Results

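The 10 genes described here are listed as general genes of the macrophage lineage: Adgre1, Csf1r, Csf1, Cd68, Itgam, Cd14, Fcgr1, Mertk, Spi1 and Tyrobp. Not all mark macrophages alone, and Csf1 is a growth factor that other cells also make. The 10 genes were taken as the probe sets that the platform annotation pairs with exactly 1 gene, that gene being on the list. All 10 genes were found, on 16 of 45101 probe sets, out of 18194 genes named in this way. RNA came from the epididymal white fat pads of males, 10 weeks of age, on a C57BL6;SJL background, and each Affymetrix array held 1 mouse. The 3 transgenic mice carried aP2-nSrebp1c, which drives the nuclear form of the lipogenic transcription factor SREBP-1c from the aP2 (Fabp4) promoter, and the labels call these mice lipodystrophic. The 3 wild type mice were litter-matched males. Fabp4 is expressed in fat cells and also in macrophages, and the sources used here do not say whether the transgene is active there.

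Macrophages arise and survive under colony stimulating factor 1 (CSF1), which acts through the receptor CSF1R, and their identity rests on the transcription factor PU.1, the product of Spi1. Fat holds resident macrophages, and their number and state change when fat cells are stressed or lost. The listed genes cover different parts of this cell: a surface antigen (Adgre1), the growth factor and its receptor (Csf1, Csf1r), the lineage factor (Spi1), a lysosomal membrane glycoprotein (Cd68), an Fc receptor (Fcgr1), an adaptor of activating receptors (Tyrobp), an integrin chain (Itgam), a lipopolysaccharide co-receptor (Cd14) and a receptor for the uptake of dying cells (Mertk). In bulk tissue, more cells of a type and more RNA per cell cannot be told apart.

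The lineage genes did not rise evenly. Signals are the deposited MAS5 intensities, and groups were compared on log2(signal + 16) with limma, with p-values adjusted by Benjamini-Hochberg over all 27022 probe sets tested. Over all 6 arrays Fcgr1 rose 3.11-fold and Tyrobp 2.75-fold, and the other 8 genes did not pass an adjusted p of 0.05. Adgre1 stood at 3.18-fold with an adjusted p of 0.0516. Without transgenic replicate 2, whose array stood apart, 5 of 10 genes rose: Cd68 4.39-fold, Fcgr1 3.70-fold, Adgre1 2.69-fold, Tyrobp 2.63-fold and Spi1 1.92-fold. Csf1r, Itgam and Cd14 had 1.28-fold, 1.42-fold and 1.34-fold without passing the test, and Mertk and Csf1 were 1.41-fold and 1.29-fold lower, also without passing it.

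The array of transgenic replicate 2 differed from the other 5 in its RNA controls. The signal of the 3′ over the 5′ probe set of beta-actin was 122 on it and 1.11 to 1.81 on the others, and for Gapdh it was 55.9 against 0.772 to 1.22. Degraded RNA loses 5′ signal first, and such ratios are read as a measure of it. The median signal was 37.7 on that array and 53.4 to 65.4 on the others. Results are therefore given with and without it. The 3′ over 5′ ratio of another control, Pcx, split the arrays in another way, with 3.06 and 3.10 in wild type replicate 3 and transgenic replicate 1 and 14.1 to 52.0 on the rest. Within the arrays of low and of high Pcx ratio the log2 differences were 1.28 and 1.87 for Adgre1, 1.77 and 1.57 for Fcgr1 and 1.48 and 1.45 for Tyrobp. For Cd68 they were 1.99 and 0.90, for Spi1 1.35 and −0.34 and for Itgam 0.27 and −1.13, where the second value holds transgenic replicate 2.

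As a guide to the regulatory DNA of these genes, the 250 bases upstream of the RefSeq start (build GRCm38.p6) are shown for members that moved differently. Capitals mark 2 motifs that hold the GGAA core bound by PU.1 and its ETS relatives, GAGGAA and AGGAAGT. They were searched on both strands, with TTCCTC and ACTTCCT as their reverse complements, and may overlap. Windows of 5 of 10 members were used, namely Cd68, Csf1, Fcgr1, Itgam and Mertk. Some windows were left out before the search, so a member not named here may still have one. Fcgr1 (chr3:96293970-96294219, minus strand) had the 2 matches nearest to each other, at positions −61 and −55 from the start. Itgam (chr7:128062390-128062639, plus strand) had them at −84 and −15, and Cd68 (chr11:69666171-69666420, minus strand) had 1 at −225. Mertk (chr2:128698665-128698914, plus strand) is shown as a member with no match, and the Csf1 window held none of these letters either.
Fcgr1: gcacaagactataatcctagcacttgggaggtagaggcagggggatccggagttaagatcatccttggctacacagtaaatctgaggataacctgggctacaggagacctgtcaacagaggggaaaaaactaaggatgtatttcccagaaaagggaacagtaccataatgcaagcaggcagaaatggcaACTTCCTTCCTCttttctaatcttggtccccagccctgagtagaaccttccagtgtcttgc
Cd68: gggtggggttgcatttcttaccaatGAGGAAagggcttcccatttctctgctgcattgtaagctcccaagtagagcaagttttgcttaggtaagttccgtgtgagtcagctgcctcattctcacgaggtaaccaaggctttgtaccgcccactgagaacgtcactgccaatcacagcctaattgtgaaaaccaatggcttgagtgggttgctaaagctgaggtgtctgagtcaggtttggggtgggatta
Itgam: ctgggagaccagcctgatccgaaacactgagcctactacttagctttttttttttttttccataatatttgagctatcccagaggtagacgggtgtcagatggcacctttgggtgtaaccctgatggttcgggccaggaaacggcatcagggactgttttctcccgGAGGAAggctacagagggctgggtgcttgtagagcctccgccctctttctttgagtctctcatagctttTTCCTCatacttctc
Mertk: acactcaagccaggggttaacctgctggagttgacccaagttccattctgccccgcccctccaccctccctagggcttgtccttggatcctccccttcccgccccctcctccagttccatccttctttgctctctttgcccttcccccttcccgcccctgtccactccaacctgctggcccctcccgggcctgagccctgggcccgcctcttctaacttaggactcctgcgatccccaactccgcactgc
Of 32851 RefSeq windows of the same length, 23.3% held GAGGAA, 7.69% held AGGAAGT and 27.3% held either, so that a match is common and is given only as a description. The members with a match include Fcgr1, which rose, and Itgam, which did not pass the test.

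Of all 13111 genes tested, 3.77% passed the threshold (2.97% of all probe sets), 2.23% higher and 1.54% lower, against 2 of 10 lineage genes, both higher. At an unadjusted p under 0.05 by limma 3 of the 10 were higher and 0 lower, beside 9.44% and 8.95% of all genes. With transgenic replicate 2 left out 15.4% of genes passed, 8.04% higher and 7.33% lower, against 5 and 0 of the 10. The 10 genes were listed with earlier results of these data known, so these counts are given only as a description. The median log2 fold change of the 10 genes was 0.39, and 0.72 without that array, beside −0.04 and 0.02 over all genes. The median over all probe sets was −0.09 as deposited and 0.02 after quantile normalization, and the 10 directions were the same under both and after centring on array medians. Adgre1 passed the test after quantile normalization (adjusted p = 0.0198). In 3 genes (Adgre1, Fcgr1, Tyrobp) every transgenic array was above every wild type array, as in 14.1% of all genes. In another 2 (Csf1, Mertk) every transgenic array was below, as in 16.3% of all genes. Over the other 5 arrays 6 of the 10 genes were above and 2 below without overlap, beside 24.1% and 22.4% of all genes.

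**Figure D1:**
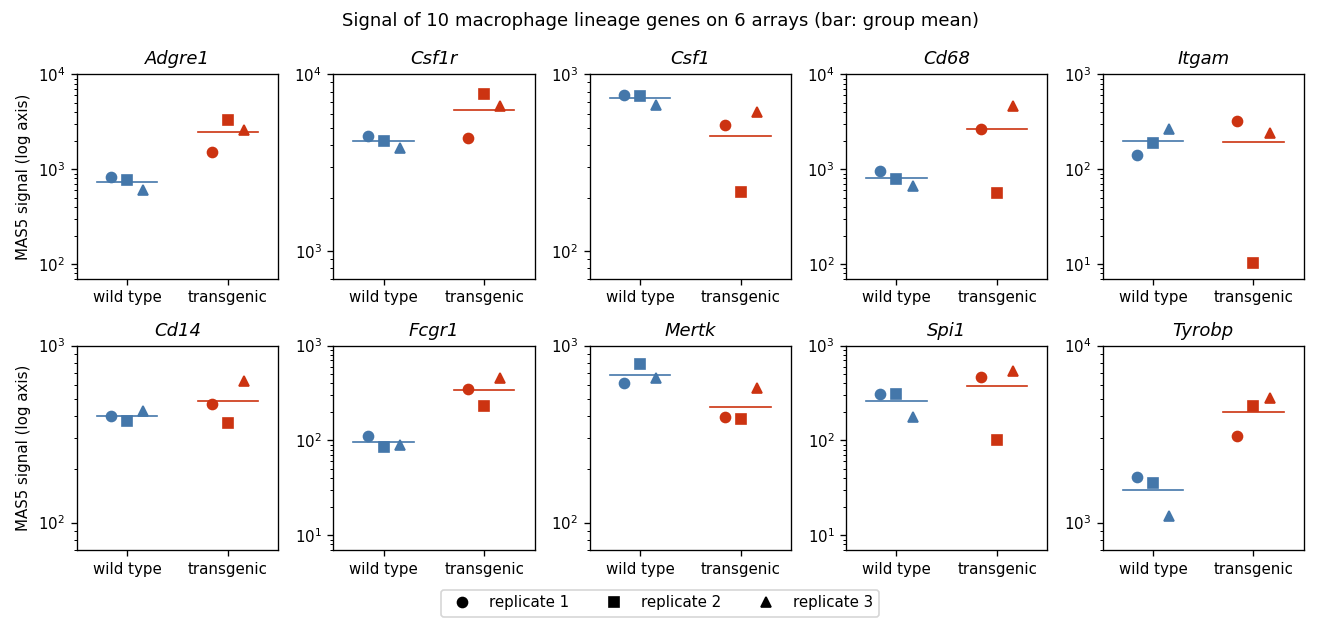
MAS5 signal on a log axis for each of the 10 lineage genes, with 1 point per array (3 wild type in blue, 3 transgenic in red, shape by replicate) and a bar at the group mean. Adgre1, Fcgr1 and Tyrobp are higher on all 3 transgenic arrays, while the square of transgenic replicate 2 lies far below the other transgenic arrays for Cd68, Spi1 and Itgam, where its signal is 567.6, 99.9 and 10.2.

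Adgre1 encodes F4/80, the antigen by which mouse macrophages are usually recognised. Its signal was 830.9, 763.5 and 609.4 in wild type replicates 1 to 3 and 1504.9, 3319.6 and 2612.8 in transgenic replicates 1 to 3. Every transgenic mouse was above every wild type mouse, and the lowest transgenic value came from replicate 1. The means were 735 ± 114 and 2479 ± 915 (SD, n = 3), with a log2 fold change of 1.67 ± 0.33 SE. The adjusted p of 0.0516 became 0.00506 without transgenic replicate 2, when the log2 fold change was 1.43 ± 0.25 SE.

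Csf1r and Csf1, the receptor and a ligand of the pathway that keeps macrophages alive, lay on different sides of wild type, and neither passed the test. The brightest Csf1r probe set (1419872_at) read 4510.9, 4202.4 and 3853.6 in wild type and 4370.0, 7782.0 and 6610.4 in transgenic fat. Transgenic replicate 1 lay within the wild type range, so the groups overlapped. The log2 fold change was 0.54 ± 0.23 SE (adjusted p = 0.318), and over the other 5 arrays, with transgenic replicate 2 left out, it was 0.36 ± 0.19 SE (adjusted p = 0.26). For Csf1 (1460220_a_at) the values were 768.4, 759.1 and 671.7 in wild type and 514.9, 217.8 and 614.7 in transgenic fat. All 3 transgenic values were below the wild type ones, but the log2 fold change of −0.81 ± 0.40 SE did not pass the test (adjusted p = 0.38), and on 5 arrays it was −0.37 ± 0.18 SE (adjusted p = 0.23). Csf1 is also made by cells other than macrophages, among them fibroblasts and endothelial cells.

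Spi1 encodes PU.1, on which expression of many of the other members depends in macrophages. Its signal was 308.4, 305.7 and 174.6 in wild type and 469.5, 99.9 and 543.5 in transgenic fat. Transgenic replicates 1 and 3 were above all wild type mice and replicate 2 below all of them. The log2 fold change was 0.22 ± 0.62 SE (adjusted p = 0.878), and without transgenic replicate 2 Spi1 rose by 0.94 ± 0.26 SE (adjusted p = 0.043). With quantile normalization of those 5 arrays that call was lost (adjusted p = 0.0526).

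Cd68, the lysosomal glycoprotein gene, had the largest difference of the 10 in transgenic replicates 1 and 3. Its signal was 965.2, 779.6 and 666.2 in wild type and 2685.5, 567.6 and 4667.7 in transgenic fat. The value of transgenic replicate 2 was below all wild type values, so the groups overlapped. Over 6 arrays the log2 fold change was 1.26 ± 0.72 SE (adjusted p = 0.441). Without transgenic replicate 2 it was 2.13 ± 0.25 SE (adjusted p = 0.000592).

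Fcgr1 and Tyrobp belong to the machinery by which macrophages sense antibody-coated targets and other ligands. Fcgr1 encodes CD64, the high-affinity receptor for immunoglobulin G. Its brighter probe set (1417876_at) read 112.1, 85.3 and 89.9 in wild type and 345.8, 229.0 and 452.1 in transgenic fat. The groups did not overlap, and the lowest transgenic value was that of replicate 2. Fcgr1 rose by 1.64 ± 0.30 SE on the log2 scale (adjusted p = 0.0396), and by 1.89 ± 0.22 SE (adjusted p = 0.000495) without that array. Tyrobp encodes DAP12, an adaptor that carries an activation motif for receptors with none of their own. It read 1798.7, 1682.0 and 1093.8 in wild type and 3080.0, 4530.7 and 5049.6 in transgenic fat. Again the groups did not overlap, and here replicate 2 lay between the other two. Tyrobp rose by 1.46 ± 0.28 SE (adjusted p = 0.0488), and by 1.39 ± 0.26 SE (adjusted p = 0.0079) without transgenic replicate 2. Both calls are near the threshold over 6 arrays: with any 1 wild type array or transgenic replicate 3 left out neither passed it, and the adjusted p was up to 0.228 for Fcgr1 and 0.192 for Tyrobp. With transgenic replicate 1 left out Tyrobp passed (adjusted p = 0.0472), Fcgr1 did not (0.0935) and Adgre1 did (0.0247). Fcgr1 also missed the threshold with the Pcx class as a block (adjusted p = 0.0757), where Tyrobp passed (0.0183), and with the mean over its probe sets (0.0524). With no filter on dim probe sets neither passed (0.0585 and 0.0709), and Tyrobp missed it with an offset of 1 (0.0567), with centring on array medians (0.0834) and with eBayes without trend (0.0615).

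Itgam and Cd14 encode surface proteins that macrophages share with monocytes and neutrophils. Itgam, the CD11b chain of the complement receptor CR3, read 142.5, 188.0 and 265.7 in wild type and 323.2, 10.2 and 242.2 in transgenic fat. The 10.2 of transgenic replicate 2 is below the 16 added before the logarithm, while replicate 3 lay within the wild type range. Over 6 arrays the log2 fold change was −0.66 ± 0.93 SE (adjusted p = 0.746). Over 5, with that array left out, it was 0.50 ± 0.27 SE (adjusted p = 0.276). Cd14, which passes lipopolysaccharide to Toll-like receptor 4, read 401.9, 376.4 and 425.0 in wild type and 469.9, 363.3 and 627.2 in transgenic fat. Its values overlapped through replicate 2, and the log2 fold change was 0.24 ± 0.27 SE (adjusted p = 0.687). Without that array it was 0.42 ± 0.19 SE (adjusted p = 0.206).

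Mertk encodes a receptor tyrosine kinase through which macrophages take up apoptotic cells. It was lower in all 3 transgenic mice (395.6, 384.2 and 574.5) than in any wild type mouse (610.9, 785.5 and 654.4). The means were 684 ± 90.9 and 451 ± 107 (SD, n = 3). The difference of −0.60 ± 0.26 SE on the log2 scale did not pass the test (adjusted p = 0.326), nor did −0.50 ± 0.21 SE without transgenic replicate 2 (adjusted p = 0.179).

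Seen mouse by mouse, the 10 genes spread widely within each transgenic animal. Relative to the wild type mean, transgenic replicate 1 ran from 1.74 log2 units for Cd68 to −0.76 for Mertk, and 8 of 10 genes were above the mean. Transgenic replicate 3 ran from 2.53 for Cd68 to −0.25 for Csf1, again with 8 of 10 above. In both mice Cd68 was the highest, followed by Fcgr1, then Adgre1 and Tyrobp, then Spi1, and Mertk and Csf1 were the lowest. Transgenic replicate 2 ran from 2.16 for Adgre1 to −2.99 for Itgam, with 4 of 10 genes above the wild type mean. On that array Cd68, Spi1 and Itgam, at −0.47, −1.23 and −2.99, left the places they had in the other transgenic mice.

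**Figure D2:**
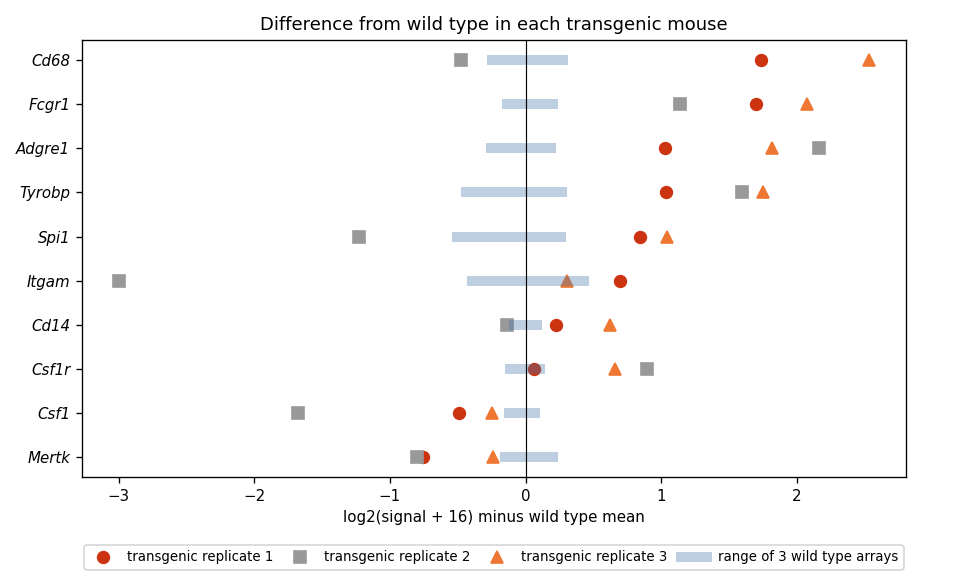
Difference of log2(signal + 16) from the wild type mean in each transgenic mouse for the 10 lineage genes (red circle, replicate 1; grey square, replicate 2; orange triangle, replicate 3), with a bar for the range of the 3 wild type arrays. The red and orange points keep nearly the same order from Cd68 down to Mertk and Csf1, while the grey squares range from 2.16 for Adgre1 to −2.99 for Itgam.

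Probe sets of the same gene can be compared within each mouse for Csf1r, Csf1 and Fcgr1, which have 3, 4 and 2 of them. The cause of any difference among them was not tested. In transgenic replicate 1 the Csf1r probe sets lay between 0.06 and 0.13 log2 units from the wild type mean, and in replicate 3 between 0.66 and 0.90. In replicate 2 they ranged from −2.02 to 0.89. The dimmest probe set (1423593_a_at) read 1293.4, 1202.1 and 1203.8 in wild type and 1314.4, 291.4 and 2005.0 in transgenic fat. Csf1 probe sets spread over 2.57 log2 units in replicate 2, against 0.52 and 0.46 in replicates 1 and 3. None (0) of the Csf1r or Csf1 probe sets passed the test with or without transgenic replicate 2. The dimmer Fcgr1 probe set (1436625_at) had 1.20 ± 0.38 SE (adjusted p = 0.175), and without that array it rose by 1.60 ± 0.21 SE (adjusted p = 0.00102).

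**Figure D3:**
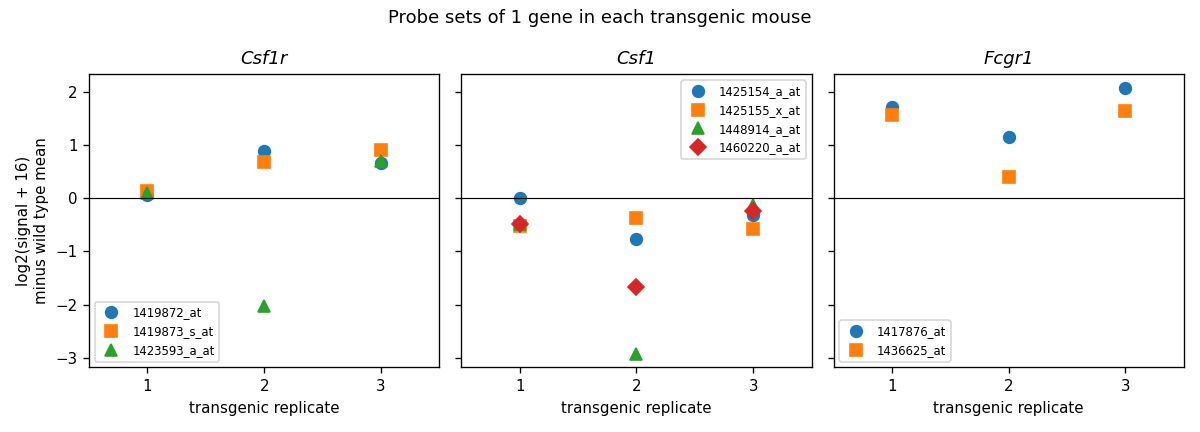
Difference from the wild type mean, in log2(signal + 16), of each probe set of Csf1r (3), Csf1 (4) and Fcgr1 (2) in the 3 transgenic mice. The Csf1r probe sets lie within 0.06 and 0.24 log2 units of each other in replicates 1 and 3 and span 2.92 in replicate 2.

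Whether the genes rose by the same amount was tested on the difference itself, as the log2 ratio of each gene to Adgre1 on the same array. Tyrobp had the smallest difference from Adgre1 among the 9 genes without transgenic replicate 2, and Fcgr1 on all 6 arrays. The log2 ratio of Tyrobp to Adgre1 was 1.10, 1.12 and 0.83 in wild type and 1.03, 0.45 and 0.95 in transgenic fat. That is a difference of −0.21 ± 0.25 SE (limma adjusted p = 0.431), and −0.03 ± 0.25 SE without transgenic replicate 2 (adjusted p = 0.906). There were 4 genes with a lower log2 fold change than Adgre1: Csf1r by −1.13 ± 0.20 SE (adjusted p = 0.0064), Cd14 by −1.43 ± 0.44 SE (adjusted p = 0.0227), Mertk by −2.27 ± 0.38 SE (adjusted p = 0.00601) and Csf1 by −2.48 ± 0.59 SE (adjusted p = 0.0116). In each of these 4 the ratio was lower in all 3 transgenic mice than in any wild type mouse. The Adgre1 signal by itself did not overlap between the groups, so a gene that did not change can give such a ratio too. The share of all genes with such a ratio was not counted, and it is no result about these 4. Fcgr1 (−0.03 ± 0.49 SE), Cd68 (−0.41 ± 0.88 SE), Spi1 (−1.45 ± 0.80 SE) and Itgam (−2.33 ± 1.19 SE) did not pass this test (adjusted p = 0.95, 0.663, 0.123 and 0.0983), and the SEs of the last 3 leave room for large differences.

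Such a difference from Adgre1 is not particular to these genes, since of all probe sets 83.5% passed the same test, and 83.0% passed it as lower, and every ratio shares the 6 Adgre1 values. Two-sided exact permutation tests of the 9 ratios gave a p of 0.1 for Csf1r, Cd14, Mertk and Csf1, the smallest that 3 against 3 arrays allow, and 0.225 after adjustment over the 9. For Tyrobp the exact permutation p was 0.5, for Spi1 and Itgam 0.2 and for Cd68 and Fcgr1 1. On the 5 arrays without transgenic replicate 2, Cd68 exceeded the change of Adgre1 by 0.71 ± 0.24 SE (limma adjusted p = 0.0114). In that comparison 87.8% of all probe sets passed, 86.9% lower and 0.892% higher. Csf1r, Mertk, Csf1 and Itgam then differed from Adgre1 by −1.06, −1.92, −1.79 and −0.92, all past the threshold, as was Cd14 (adjusted p = 0.0034). After quantile normalization of the same 5 arrays the difference of Itgam no longer passed (adjusted p = 0.0599).

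Set against Csf1r instead, 6 of the other 9 members differed from it once transgenic replicate 2 was left out, a combination chosen after the data were seen. Among these Cd68 (1.77 ± 0.14 SE), Fcgr1 (1.53 ± 0.20 SE), Adgre1 (1.06 ± 0.13 SE) and Tyrobp (1.03 ± 0.18 SE) had a higher log2 fold change than Csf1r, with adjusted p from 0.000351 to 0.00743. Cd14 (0.06 ± 0.16 SE), Itgam (0.14 ± 0.39 SE) and Spi1 (0.58 ± 0.24 SE) did not pass the test (adjusted p = 0.814, 0.824 and 0.124), and Spi1 did not pass against Adgre1 on these arrays either (−0.48 ± 0.30 SE, adjusted p = 0.132). Mertk (−0.86 ± 0.17 SE, adjusted p = 0.0122) and Csf1 (−0.73 ± 0.15 SE, adjusted p = 0.0137) had a lower log2 fold change than Csf1r, with their own values on the other side of wild type. Of all probe sets 21.5% passed the threshold in that comparison. With all 6 arrays only Adgre1 differed from Csf1r (1.13 ± 0.16 SE, adjusted p = 0.0206), where 4.67% of probe sets passed. Against Cd68 none (0) of the 9 passed limma's threshold on 6 arrays, where 4.54% of probe sets did. On the 5 arrays without transgenic replicate 2, 8 of 9 did, beside 97.6% of all probe sets.

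**Figure D4:**
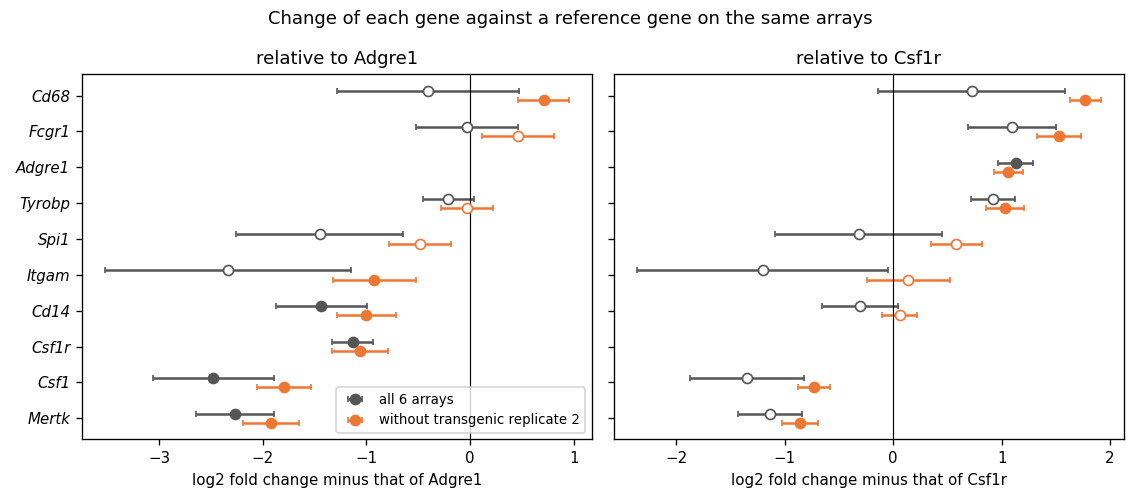
Log2 fold change of each lineage gene minus that of Adgre1 (left) or of Csf1r (right) on the same arrays, with bars of 1 SE, for all 6 arrays (grey) and without transgenic replicate 2 (orange); filled points have a limma adjusted p under 0.05. Csf1r, Cd14, Csf1 and Mertk lie left of Adgre1 in both settings, and Tyrobp stays near it at −0.21 and −0.03.

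Genes related to the members were taken as 7 lists, called partner lists here, 60 of whose 70 further genes were tested. Of these 60 genes 8 rose, 0 fell and the median log2 fold change was 0.43, and without transgenic replicate 2, 29 rose and 4 fell (median 0.68). Of all genes 2.23% rose and 1.54% fell, and 8.04% and 7.33% without that array. The 0 and 4 that fell lie near these shares. All 7 lists were chosen with earlier results of these data known, so their counts are given only as a description. Fcgr1 and Tyrobp were listed with adaptors, Fc receptors and other genes, and 2 of the 9 tested rose. These were Fcgr4 by 2.65 ± 0.30 SE (adjusted p = 0.00724) and Clec7a, which encodes the β-glucan receptor Dectin-1, by 1.76 ± 0.31 SE (adjusted p = 0.0336). Fcgr4 encodes an activating receptor for immunoglobulin G and read 107.9, 108.4 and 82.8 in wild type and 498.4, 906.4 and 773.3 in transgenic fat, with no overlap. Without transgenic replicate 2, 6 of these 9 rose and 0 fell. Among 5 integrin chains other than Itgam, Itgb2 rose by 1.84 ± 0.29 SE (adjusted p = 0.0254). Itgb2 encodes CD18, the β chain that pairs with the product of Itgam, and its signal was 1428.8, 1281.1 and 797.5 in wild type and 3140.8, 4652.5 and 4750.3 in transgenic fat.

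Of 21 further genes shared by macrophages and other leukocytes 5 rose and 16 did not pass the test, where 2.23% of all genes rose. Mpeg1, the gene of the pore-forming protein perforin-2, rose by 2.37 ± 0.34 SE (adjusted p = 0.0172), Cd84 by 1.87 ± 0.34 SE (adjusted p = 0.0391), Ctss (cathepsin S) by 1.60 ± 0.25 SE (adjusted p = 0.024) and Lcp1 (L-plastin) by 1.55 ± 0.24 SE (adjusted p = 0.0229). The last of the 5, Aif1, encodes the microglia and macrophage marker IBA1 (1.43, adjusted p = 0.0363). Without transgenic replicate 2, 15 of these 21 rose and 0 fell, with a median of 1.01, beside 8.04% and 7.33% of all genes.

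Partners of Csf1, Spi1, Cd14 and Mertk did not pass the test over 6 arrays. In the lists of colony stimulating factors and their receptors, myeloid transcription factors, the Toll-like receptor 4 complex, and TAM receptors with other genes of apoptotic cell uptake, 0 of 4, 7, 5 and 9 genes passed limma's threshold. Of all genes 3.77% passed it, so 0 in lists this short does not set them apart. At an unadjusted p under 0.05 there were 1, 2, 2 and 0 genes of these lists, beside 18.4% of all genes. On the other 5 arrays 2, 2, 1 and 1 genes of these lists rose and 1 of each fell, beside 8.04% and 7.33% of all genes. The 3 of the first list are named after their values were seen. The growth factor receptor genes Csf2ra and Csf3r rose by 0.82 and 1.18 (adjusted p = 0.0492 and 0.0432). Il34, the second ligand of CSF1R, fell by 1.27 on the log2 scale (adjusted p = 0.00619). Il34 read 286.2, 315.2 and 210.7 in wild type and 114.6, 19.4 and 89.0 in transgenic fat, so that, as for Csf1, every transgenic value was below every wild type one. For apoptotic cell uptake the median log2 fold change was −0.42 over 9 genes, and −0.16 without transgenic replicate 2. For the 21 leukocyte genes it was 0.96 and 1.01, and the difference between these lists was not tested.

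**Figure D5:**
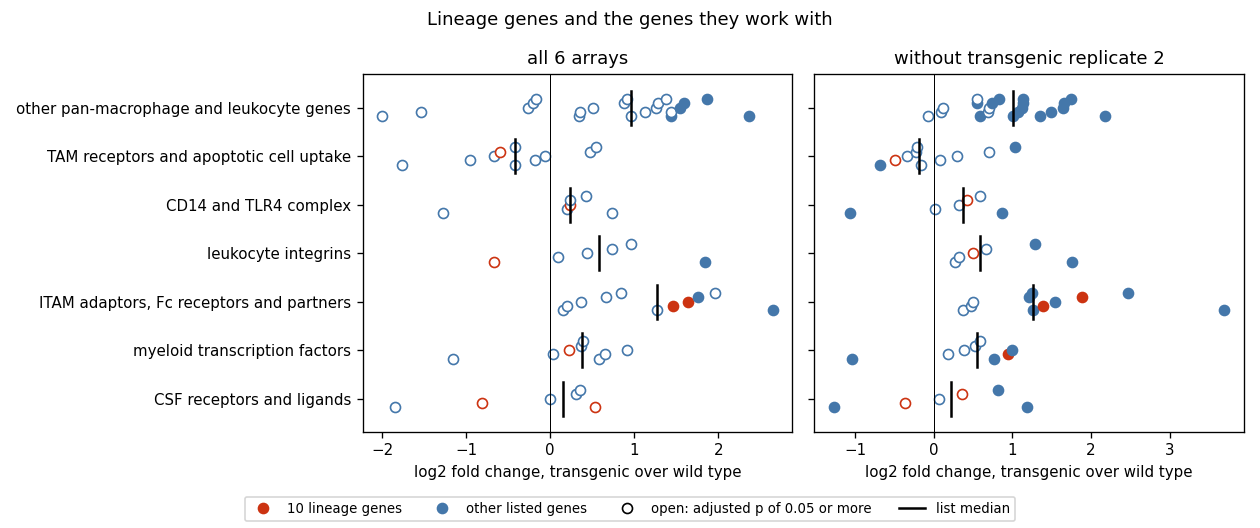
Log2 fold change of each tested gene in the 7 partner lists, on all 6 arrays (left) and without transgenic replicate 2 (right), with lineage genes in red, other listed genes in blue, filled points for a limma adjusted p under 0.05 and a black bar at each list's median. The lists of Fc receptors and adaptors and of other leukocyte genes sit furthest to the right, and the list of apoptotic cell uptake lies around or below 0.

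The genes whose log2 values over the 6 arrays were most like those of Adgre1 were Tpd52, Ms4a6d, Gadd45a, Palm2 and Tlr1, with Pearson r of 0.999 for the first and 0.998 for the last, as a description without a test. Ms4a6d and Tlr1, a myeloid membrane gene and a Toll-like receptor gene, rose by 2.10 and 1.82 (limma adjusted p = 0.0443 and 0.0446). Tpd52, Gadd45a and Palm2 did not pass the test (adjusted p = 0.0594, 0.112 and 0.213). All were picked for their likeness to Adgre1, whose groups did not overlap, so a group difference in them follows from the choice. Over the 6 arrays Tyrobp was the member most like Adgre1 (r = 0.973, rank 274 of 13110 genes), then Csf1r (0.936) and Fcgr1 (0.829). That order changed without transgenic replicate 2. Tyrobp then had 0.990, Fcgr1 0.965, Spi1 0.920, Cd14 0.911 and Csf1r 0.892, and Itgam, Mertk and Csf1 had 0.361, −0.541 and −0.620. Cd68 had r = 0.382 over 6 arrays and 0.992 without transgenic replicate 2.

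Markers of other cells moved with the comparison too, and their part in the values of the lineage genes was not tested. The summed signal of 8 of 10 listed fat cell markers was 63034 to 69650 in wild type and 30111 to 45905 in transgenic fat. Of the 8, 3 passed the test as lower. Their median log2 fold change was −1.79 for all 8, and −0.99 without transgenic replicate 2. The sum was lower in transgenic fat but large in both groups. Neutrophils share Itgam, Cd14 and Tyrobp with macrophages, and 8 of 10 of their listed markers (S100a8 and S100a9 among them) summed to 282.9 to 360.2 in wild type and 629.5 to 906.4 in transgenic fat. Natural killer cells share Itgam and Tyrobp, and 8 of 10 T and NK cell markers summed to 416.6 to 531.6 and 529.0 to 747.9. All 6 mast cell markers summed to 555.1 to 650.7 and 1464.7 to 2305.6, and 5 of 6 B cell markers to 467.1 to 704.9 and 1360.5 to 3829.9. Of the tested neutrophil markers 1 of 6 passed as higher, and of those of T and NK cells 0 of 6. For mast cells it was 2 of 4. For B cells 1 of 5 passed as higher (median log2 fold change 0.44), so their sum does not show a shared rise. Of all genes 2.23% passed as higher and 1.54% as lower. The sums were lower in transgenic fat for 6 endothelial markers (5953 to 6512 against 1818 to 4850), 5 mesothelial markers (4324 to 5034 against 519.8 to 1721) and 5 of 6 dendritic cell markers (544.9 to 683.3 against 322.9 to 517.0). Those of 7 fibroblast-like progenitor markers overlapped (23218 to 25941 against 22767 to 28657), and 4 of 6 epididymis markers summed to 46.0 to 59.9 and 39.7 to 81.4. Passing as lower were 0 of 6 endothelial, 2 of 5 mesothelial and 0 of 3 tested dendritic cell markers. Without transgenic replicate 2, 5 of 8 fat cell, 3 of 6 endothelial, 4 of 5 mesothelial and 0 of 3 dendritic cell markers passed as lower. Those passing as higher were 2 of 6 neutrophil, 1 of 6 T and NK cell, 4 of 4 mast cell and 2 of 5 B cell markers. Of all genes 8.04% then passed as higher and 7.33% as lower. Transgenic replicate 2 gave the highest transgenic sum for neutrophils and B cells and the lowest for every other cell type listed.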

How the data were processed

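Per the submitters' processing notes the authors used MAS5, and the deposited values are its signal intensities on a linear scale, 1 for each probe set on each array. The sources used here give no MAS5 version, scaling target or detection calls. There were 0 columns of other samples. Of 45101 probe sets, 34958 had 1 gene in the platform annotation, 932 several and 9211 none. The files hold no counts, so precision rests on the number of arrays and on the RNA quality of each.

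The log2 of intensity + 16 was fitted in limma 3.58.1 (R 4.3.3) by lmFit and by eBayes with a mean-variance trend (two-sided), after leaving out 64 control probe sets and the 40% with the lowest mean over all arrays, which left 27022. Adjusted p-values are Benjamini-Hochberg values over the 27022 probe sets, called at 0.05. A gene was represented by its brightest tested probe set (13111 genes). All 16 probe sets of the 10 members were tested. The added 16 makes the fold changes of dim genes too small. Ratios to Adgre1 were fitted over all probe sets in the same way, and by exact permutation. Tables and figures used Python 3.11.15, pandas 2.3.3 and matplotlib 3.10.9. The limma step was tested on simulated data, where on 6 arrays it missed most of the changes put in. A gene that did not pass the threshold may still differ between the groups.

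Members and lists were chosen with earlier results of these data known. The rule for named partners took, per list, at most 4 genes past the threshold by size, and the 5 genes most like Adgre1. Aif1, Csf2ra, Csf3r, Il34 and the C1q genes fall outside it and were named after their values were seen. Same-numbered arrays did not deviate together (r = −0.37, 0.09 and −0.05), so the numbers were not taken as pairs. The highest r, 0.45, was that of wild type replicate 3 with transgenic replicate 1, the arrays of low Pcx ratio. These values cannot show which mice shared a litter or a batch. The mice are separate animals, so that p-values rest on the spread among mice, which includes any difference in handling. Promoter windows are RefSeq's (GRCm38.p6).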

Additional observations from a re-analysis of the deposited data

How the results depend on the processing

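The 802 probe sets past the threshold became 3361 with array weights, 341 with the replicate number as a block (replicate block), 4969 without transgenic replicate 2 after quantile normalization, and 141 to 3565 with 1 array left out (180, 141 and 187 without wild type replicates 1, 2 and 3; 325 and 3565 without transgenic replicates 3 and 2). The 2 members past it became 0 with no filter and with the replicate block, 1 with an offset of 1, with centring on array medians and with eBayes without trend, 4 with array weights, 4 without transgenic replicate 2 after quantile normalization, and between 0 and 5 when single arrays were left out. The 4 members that differed from Adgre1 became 8 with array weights and, with 1 array left out, 3 to 6; against Csf1r the count was 1, and against Cd68 it was 0, or 8 without transgenic replicate 2. Directions turned in 4 results. Itgam had 0.30 with array weights, and 0.50 both without transgenic replicate 2 and after quantile normalization of the other 5 arrays. With 1 array left out Itgam ran from −1.34 to 0.50 and Spi1 from −0.19 to 0.94. Relative to Adgre1, Cd68 had 0.73 with array weights and 0.69 without transgenic replicate 2 after quantile normalization, and ran from −0.97 to 0.71 with 1 array left out. Fcgr1 relative to Adgre1 had 0.092 with an offset of 1, 0.17 after quantile normalization, 0.34 with array weights, 0.48 without transgenic replicate 2 after quantile normalization, and −0.38 to 0.46 with 1 array left out. The cause was not tested. The log2 fold changes of Adgre1, Fcgr1 and Tyrobp stayed between 1.39 and 1.99, 1.31 and 1.96, and 1.24 and 1.67 over 19 alternatives. The number of arrays, 3 against 3, limits every call.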

Other observations

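Complement C1q, a protein of macrophages built from 3 chains encoded by neighbouring genes, was looked at after its values were seen, because its chains differed on 1 array. In transgenic replicate 2 the signal was 26.8 for C1qa, 4825.4 for C1qb and 776.5 for C1qc. In transgenic replicates 1 and 3 it was 3401.5 and 3164.7, 3075.6 and 4417.4, and 3717.5 and 4558.6. Over 6 arrays none (0) of the 3 passed limma's threshold, and at an unadjusted p under 0.05 only C1qb did (log2 fold change 0.87). Without that array C1qb and C1qc rose by 0.75 and 0.59 (adjusted p = 0.0315 and 0.0291), and C1qa had 0.09 (adjusted p = 0.742). The values given for C1qb are those of its brightest probe set. Another C1qb probe set read 778.0 in transgenic replicate 2 and 3382.4 and 5033.6 in replicates 1 and 3, so that probe sets of 1 gene disagreed on that array here too.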
